A study of Drosophila melanogaster with 3 samples.

Results

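The genes described here are the cuticle protein genes of Drosophila melanogaster, and the question put to the data was how they lie relative to sites occupied by the protein CG10669. Members were the protein-coding Ensembl genes whose symbol begins with Cpr, Lcp, Ccp84, Edg, Pcp, Acp65A or Twdl. The rule found 123 of 13945 protein-coding genes on the 6 assembled chromosome arms. They comprised 70 Cpr genes with a cytological number in the symbol, 25 Twdl genes, 15 Lcp genes, 7 Ccp84 genes, 3 Edg genes, Pcp, Acp65Aa and the gene named simply Cpr. Cpr encodes the cytochrome P450 reductase and shares only its letters with the cuticle genes. Values below are therefore given for the 122 cuticle protein genes, with Cpr named wherever it enters a count.

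Chromatin immunoprecipitation with sequencing (ChIP-seq) had been done on whole prepupae of a transgenic line that carries CG10669 fused at its C-terminus to green fluorescent protein (GFP), with males and females pooled. The 3 biological replicates formed a single group, and no untagged or untreated group was analysed here. The antibody field names CG10669 although the line carries a GFP fusion, the free-text description speaks of an input control although the assay and peak lists belong to an immunoprecipitation, and the labelled age of 24 days does not match a prepupa. The authors deposited 30000 candidate peaks for each replicate, 30000 for the pooled replicates and a list of 7248 reproducible peaks, all in coordinates of the genome build dm6. The depth of sequencing was unknown, because no read totals were given.

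Insect cuticle is a layered coat of chitin fibres and proteins that the epidermis secretes anew at each moult. Most proteins of the Cpr, Lcp, Ccp84, Edg, Pcp and Acp65A groups bind chitin through a shared domain, the Rebers and Riddiford consensus, while the Tweedle (Twdl) proteins form a separate family in which mutations alter body shape. Lcp1 to Lcp4 are proteins of larval cuticle, Pcp of pupal and Acp65Aa of adult cuticle, and the Edg genes were named for their dependence on ecdysone in the epidermis of prepupae, the stage that begins to lay down pupal cuticle. Many of these genes are short, arose by duplication and stand in clusters in which neighbours are used at different moults.

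The promoters of the Edg genes, of Pcp and Acp65Aa and of ends of 2 large clusters are shown as examples. As in all 122 cuticle genes, no reproducible summit lay within 500 bp of any transcription start site (TSS) of these genes. A summit is the highest point of a peak. Each line holds the 60 bases before the Ensembl canonical TSS, read from the RefSeq genome of the build dm6, 5′ to 3′ on the strand of the gene, with the TATA word TATAAA in capitals. All promoters shown hold this word 45 to 16 bases before the TSS. Only 78 of 122 cuticle promoters (63.9%) do, so the examples do not stand for the whole set.
Edg78E promoter, chr3L:21297804-21297863, minus strand: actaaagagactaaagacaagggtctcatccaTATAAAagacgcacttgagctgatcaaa
Edg84A promoter, chr3R:6684385-6684444, plus strand: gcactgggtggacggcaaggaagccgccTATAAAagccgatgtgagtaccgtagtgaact
Edg91 promoter, chr3R:17611512-17611571, minus strand: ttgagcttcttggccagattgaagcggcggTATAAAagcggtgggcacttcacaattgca
Pcp promoter, chr2L:7021622-7021681, plus strand: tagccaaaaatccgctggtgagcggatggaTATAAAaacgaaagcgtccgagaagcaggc
Acp65Aa promoter, chr3L:6152746-6152805, minus strand: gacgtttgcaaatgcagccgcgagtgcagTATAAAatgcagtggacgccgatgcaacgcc
Ccp84Aa promoter, chr3R:6704024-6704083, plus strand: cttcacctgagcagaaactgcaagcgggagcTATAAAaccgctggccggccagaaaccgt
TwdlM promoter, chr3R:26619058-26619117, plus strand: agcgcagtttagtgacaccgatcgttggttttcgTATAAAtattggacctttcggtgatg
TwdlD promoter, chr3R:26639965-26640024, plus strand: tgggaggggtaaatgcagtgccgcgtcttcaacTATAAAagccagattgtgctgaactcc

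The genes were small and simple in structure. Their median length was 954 bp, against 2166 bp for all protein-coding genes. A single TSS was annotated for 111 of 122 cuticle genes (91%), against 73.5% of all genes. They lay on 3L (47 genes), 3R (33), 2R (27), 2L (7 beside Cpr) and X (8). The span of another gene enclosed 12 of them, among them Pcp inside the purine synthesis gene Gart, Cpr64Aa to Cpr64Ad inside CG43367, and TwdlX, TwdlY, TwdlZ and Twdlalpha inside goe.

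No cuticle protein gene had a reproducible summit at its promoter. A summit of the reproducible list lay within 500 bp of a TSS in 0 of 122 cuticle genes. Counting error alone allows a share of up to 2.46%, if genes are taken as independent. Of the 123 genes of the rule only Cpr had such a summit (0.813%). The share over all protein-coding genes was 15.4% (2145 genes), with every annotated TSS used. With canonical TSSs only, it was 12.6%, and 0 of the 123 genes of the rule had a summit. Among genes shorter than 2 kb, again with every TSS, the count was 0 of 103 cuticle genes, against 9.02% of 6517 genes. The member nearest to the limit on its far side was Cpr72Eb at 547 bp.

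The same count was made in each replicate, using the 7248 candidates with the highest signal so that the lists had the same length as the reproducible one. Replicate 1 placed a summit within 500 bp of a TSS in 2 cuticle genes (1.64%), against 15.2% of all genes, and these were Cpr72Ea and Cpr12A. Replicate 2 did so in 1 cuticle gene (0.82%), Cpr73D, against 18% of all genes. Replicate 3 did so in 0 of 122, against 16.9% of all genes. The mean was 0.82 ± 0.82% for cuticle genes and 16.7 ± 1.42% for all genes (SD, n = 3 each), and the replicate values of the 2 sets did not overlap. No cuticle gene was found in more than 1 replicate list.

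**Figure D1:**
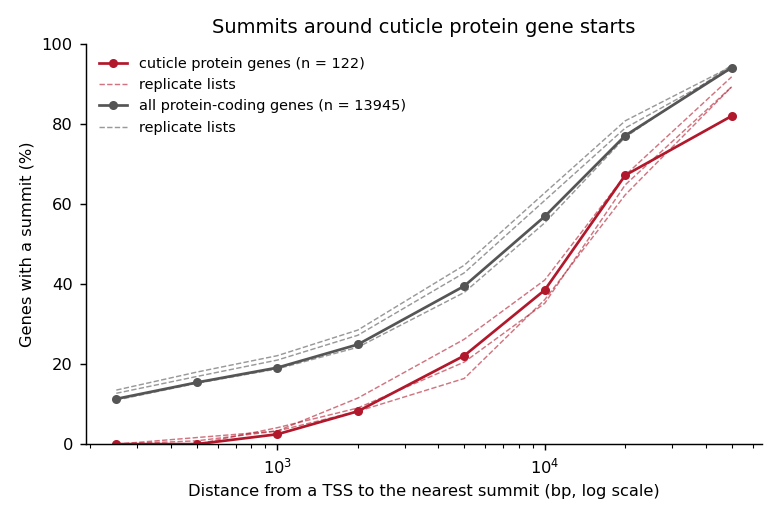
Share of genes (%, vertical axis) with a summit within a given distance of a TSS (bp, log scale), for cuticle protein genes (red, n = 122) and all protein-coding genes (grey, n = 13945); solid lines show the reproducible list and dashed lines the 3 replicate lists of equal length. The red line lies at 0% at 500 bp and 22.1% at 5000 bp, below the grey values of 15.4% and 39.5%.

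Widening the distance from the TSS brought in few genes at first. Within 1000 bp there were 3 cuticle genes (2.46%), Cpr72Eb, Cpr62Ba and Cpr65Ea, against 19.1% of all genes. Within 2000 bp there were 10 (8.2%), against 24.9%, and within 5000 bp 27 (22.1%), against 39.5%. Within 20000 bp there were 82 cuticle genes (67.2%), against 77.1% of all genes. The cuticle share was a small part of the share over all genes near the TSS and most of it at 20000 bp.

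Counted from the whole gene, a reproducible summit lay within 5 kb of 28 of 122 cuticle genes (23%), against 45.3% of all genes. With Cpr the count was 29 of 123 (23.6%). Among genes shorter than 2 kb it was 22 of 103 cuticle genes (21.4%), against 35.8% of 6517 genes. The replicate lists gave 32 cuticle genes (26.2%) against 43.7% of all genes in replicate 1, 22 (18%) against 51.4% in replicate 2, and 27 (22.1%) against 49.2% in replicate 3. The mean was 22.1 ± 4.1% for cuticle genes and 48.1 ± 3.94% for all genes (SD, n = 3 each), again without overlap. Just inside the limit was TwdlC at 4741 bp and just outside it was Lcp65Ab1 at 5383 bp. Keeping only the reproducible summits found within 200 bp in both remaining replicate lists, the count of 29 became 18 without replicate 1 (39.2% of all genes), 24 without replicate 2 (36.8%) and 16 without replicate 3 (36.6%).

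Of the 28 cuticle genes within 5 kb of a reproducible summit, 16 were within 5 kb of a summit in all 3 replicate lists, 9 in a pair of them, 2 in 1 and 1 in none. Edg78E, TwdlF and Cpr5C were those found in fewer than a pair of lists. Of the 94 other cuticle genes, 82 were within 5 kb of a summit in no replicate list, 11 in 1 list and only Cpr67B in a pair. Genes of a cluster share summits, and the 28 genes rest on 20 summits.

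The median distance from a cuticle gene to the nearest reproducible summit was 12228 bp (interquartile range 5494 to 24668 bp), against 6278 bp for all genes and 8832 bp for genes shorter than 2 kb. The replicate medians were 13214, 13640 and 13914 bp for cuticle genes, a mean of 13589 ± 353 bp, against 6770, 4697 and 5184 bp for all genes, a mean of 5550 ± 1084 bp (SD, n = 3 each). Every replicate therefore placed the cuticle genes farther from its summits than genes in general. A summit was more than 20 kb away from 38 cuticle genes (31.1%), against 20.6% of all genes, and more than 50 kb away from 21 (17.2%), against 5.54%. Of these 21 genes, 20 belong to the clusters Cpr49Aa to Cpr49Ah and TwdlM to TwdlD. In the replicate lists fewer cuticle genes lay beyond 50 kb, namely 9 (7.38%), 12 (9.84%) and 12 (9.84%), against 4.91%, 5.18% and 5.82% of all genes. Without replicate 3, keeping only reproducible summits found in the other two lists, the median of the 123 genes was 18961 bp, against 9478 bp for all genes.

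By family, the counts are set against the 45.3% of all genes that lay within 5 kb of a summit. The Twdl genes had a median of 23494 bp, with 2 of 25 within 5 kb of a summit, and the Ccp84 genes one of 17981 bp with 0 of 7. The Lcp genes had a median of 11242 bp with 1 of 15 within 5 kb, and the Cpr genes 10752 bp with 23 of 70. By chromosome, 19 of 47 cuticle genes on 3L (40.4%) lay within 5 kb of a summit, against 49.1% of all genes there, and their median distance was 5880 bp, against 5231 bp. On 3R it was 5 of 33 cuticle genes (15.2%), against 44.6% of all genes, with medians of 20766 and 6536 bp. On 2R it was 1 of 27 (3.7%), against 41.3%, with medians of 28974 and 7508 bp. On X it was 2 of 8 (25%), against 50.1%, and on 2L 1 of 7 (14.3%), against 43.4%. Neighbours within a cluster share their distance, and no test of a difference between families or chromosomes was made.

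Among the genes of prepupal and pupal cuticle, Edg78E lay 4473 bp from a reproducible summit, Edg91 6433 bp and Edg84A 9694 bp. Pcp lay 11019 bp away and the adult cuticle gene Acp65Aa 2598 bp. Lcp1, a larval cuticle gene, was 31370 bp away. TwdlA is listed under the symbol Tb, the Tubby body-shape gene, in the annotation and so was not a member. Tb lay 56825 bp from the nearest summit.

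Clusters were formed from members less than 20 kb apart, which gave 17 clusters holding 92 of the 123 members, and 31 members stood outside. The clusters covered 286.5 kb and held 5 reproducible summits, or 1.75 per 100 kb, against 5.41 per 100 kb of the 6 chromosomes. The replicate lists gave 2.09, 1.75 and 2.09 summits per 100 kb of cluster, a mean of 1.98 ± 0.202 (SD, n = 3), against 5.41 in the genome for lists of this length. Pooled candidates were also sparser, with 34 inside clusters or 11.9 per 100 kb, against 22.4 in the genome. The median distance from a cluster to its nearest reproducible summit was 6819 bp, and it was 10297 bp when any 1 replicate was left out. No such distance was computed for spans of other genes. The cluster median therefore does not show whether clusters lie farther from summits than other stretches of the genome.

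In 13 of the 17 clusters no reproducible summit lay inside, and 15 clusters had 3 or more members. The longest summit-free interval was around Cpr49Aa to Cpr49Ah, 8 genes on 2R with 7 other genes between them, where 197773 bp separated the flanking summits. Cpr49Aa (98418 bp), Cpr49Ab (96585 bp) and Cpr49Ac (85924 bp) were the members farthest from any reproducible summit. This interval was not empty of weaker peaks, since 6 pooled candidates lay inside the cluster and the replicate 2 list had 1 summit there. The nearest summit of the replicate 1 list was 60792 bp from the cluster and that of replicate 3 was 20749 bp away.

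The Tweedle cluster on 3R from TwdlM to TwdlD held 12 members, no other gene, no reproducible summit and no pooled candidate. Among the replicate 1 candidates, 1 lay inside it, 95 bp from TwdlP. The summit-free interval of this cluster was 171422 bp, with the nearest summits 76184 bp to the left and 73302 bp to the right. The replicate 2 and 3 lists had their nearest summits at 73308 and 73339 bp, while the replicate 1 list had one at 13735 bp. The gaps between neighbouring reproducible summits had a median of 5324 bp over 7242 gaps. Of these gaps, 70 (0.967%) were longer than 150 kb, and those around TwdlM to TwdlD, Cpr49Aa to Cpr49Ah and TwdlF to TwdlV (152011 bp) were among them. A long summit-free interval has more room for genes than a short one, so these lengths are given as a description.

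Other clusters without a summit had shorter intervals. They were 109230 bp around the larval genes Lcp1 to Lcp4, 66459 bp around Cpr47Ea to Cpr47Eg, and 49260 bp around Edg84A to Ccp84Aa, a row of 8 genes that holds Edg84A and the 7 Ccp84 genes. They were 40592 bp around Cpr76Ba to Cpr76Bd, 39172 bp around Cpr64Aa to Cpr64Ad, 35456 bp around Cpr67Fa1 to Cpr67Fb, 27359 bp around TwdlX to Twdlalpha and 16296 bp around Cpr78Ca to Cpr78Cc. The pairs Cpr50Ca with Cpr50Cb and Cpr97Ea with Cpr97Eb had intervals of 148321 and 22395 bp. The Cpr97Ea pair had no summit of the reproducible list inside, but the replicate 1 and replicate 3 lists had 1 each. Inside Lcp1 to Lcp4, Cpr64Aa to Cpr64Ad, Cpr67Fa1 to Cpr67Fb, Cpr76Ba to Cpr76Bd, Cpr78Ca to Cpr78Cc, TwdlF to TwdlV and TwdlX to Twdlalpha there was also no pooled candidate. Candidates of single replicates did lie inside some of these, such as a replicate 1 candidate inside Lcp4.

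The 4 clusters with a summit inside all lay on 3L. They were Cpr62Ba to Cpr62Bc with 1 summit, the 18 genes from Lcp65Ag3 to Cpr65Az with 1, Cpr65Ea to Cpr65Ec with 2 and Cpr72Ea to Cpr72Ec with 1. The Cpr65Ea and Cpr72Ea clusters held their summits in all 3 replicate lists. The Cpr62Ba cluster held 0, 1 and 1 summits in the replicate 1, 2 and 3 lists, and the Lcp65Ag3 cluster 2, 0 and 1.

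**Figure D2:**
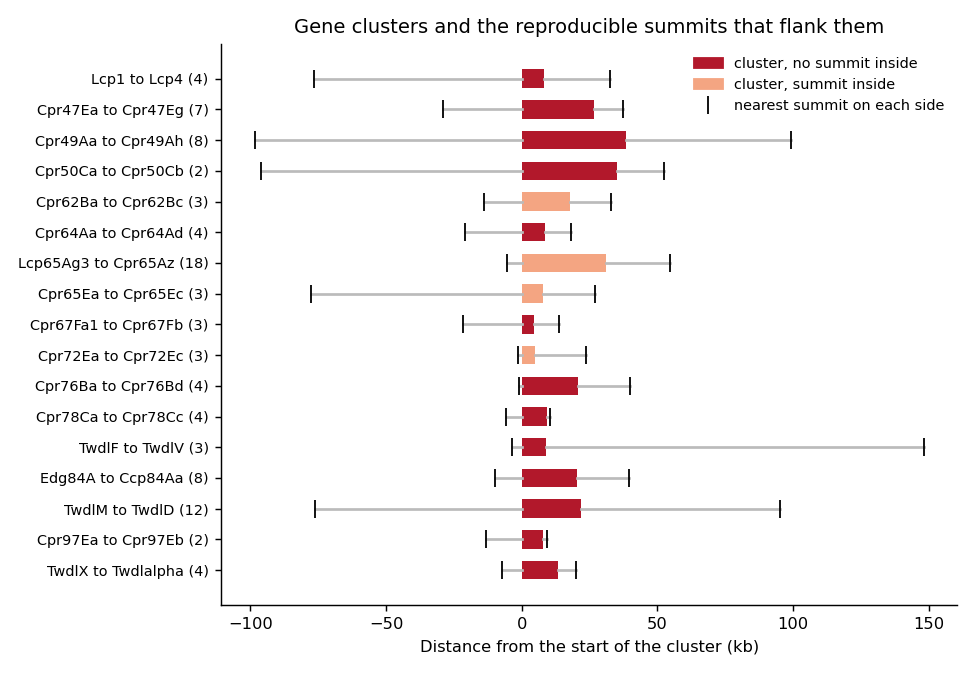
Each bar is a cluster of cuticle protein genes (number of members in brackets), drawn in kb from its start, with the nearest reproducible summit on each side as a vertical tick. The 13 dark clusters have no summit inside, the 4 light ones do, and the widest summit-free intervals, 197773 and 171422 bp, surround Cpr49Aa to Cpr49Ah and TwdlM to TwdlD.

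Within 5 kb of the 122 cuticle genes there were 20 reproducible summits, and 19 of these had a candidate summit within 200 bp in all 3 replicates. The same share over the whole reproducible list was not counted. Strength is given as a relative signal, the authors' peak signal over the median signal of all candidates in that list. Ranks count from the highest signal in the pooled list. The 20 summits had a median rank of 4048, against 3624 for the reproducible list as a whole. A cuticle gene had the nearest TSS for 11 of the 20 summits, and 13 of the 20 were intergenic. Only protein-coding genes were used for both, so intergenic means outside any protein-coding gene. The intergenic share over all reproducible summits was not counted. Over the whole reproducible list the nearest TSS belonged to a cuticle gene for 13 of 7248 summits (0.179%). Over the pooled candidates it did so for 100 of 30000 (0.333%). These genes make up 0.875% of protein-coding genes. That share takes no account of how much sequence lies nearest to their TSSs, and many of these genes are short and clustered.

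The strongest summit of the neighbourhood stood at rank 37, with relative signals of 42.2, 27.8 and 33.9 in replicates 1 to 3, a mean of 34.6 ± 7.26 (SD, n = 3). It lay 3390 bp from Cpr78Cc but 94 bp from a TSS of CG11309, a gene that is no member. The next, at rank 222, lay 1498 bp from Cpr31A and 533 bp from a TSS of Pen, which encodes an importin alpha, and had relative signals of 16.8, 17.2 and 22.6. Summits at the TSSs of other genes were also the ones near TwdlC (rank 2615, 239 bp from CG31076), near Cpr66Cb (rank 3258, 142 bp from CG7083), inside Cpr51A (rank 2117, 268 bp from CG30197) and near TwdlF (rank 4958, 187 bp from CG34305). With the one at CG11309, 5 of the 21 summits within 5 kb of a member stood within 500 bp of the TSS of another gene. How many summits of the whole list stood that near to a TSS was not counted.

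The strongest summits whose nearest TSS was that of a cuticle gene were intergenic. On 3L, 1227 bp before Cpr72Ea, a summit at rank 769 had relative signals of 11.6, 10.4 and 10.8, a mean of 11 ± 0.648 (SD, n = 3). A summit 547 bp before Cpr72Eb, the next gene of the same cluster, stood at rank 1058 with 11.5, 6.91 and 8.54, a mean of 8.99 ± 2.34. On 2R, a summit 3084 bp from Cpr51A stood at rank 809 with 14, 9.43 and 9.1, a mean of 10.9 ± 2.75. All 3 exceeded 6 times the median candidate in every replicate.

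Weaker summits lay by other cuticle genes. Cpr65Eb had a summit at 169 bp from the gene, which was 936 bp from the TSS of Cpr65Ea, with relative signals of 3.36, 2.97 and 2.87, and another at 2196 bp with 3.25, 2.27 and 3.79. Cpr12A had one at 2270 bp with 2.9, 2.46 and 3.52, and Cpr100A one at 2845 bp with 3.88, 2.27 and 3.49. Cpr76Ba had one at 841 bp with 4.19, 1.62 and 2.1, the highest value being that of replicate 1. Near the end of the reproducible list stood the summit inside Cpr62Ba (rank 6983), the one 1105 bp from Cpr78Cc (rank 7072) and the one 3847 bp from Cpr5C (rank 7105). The summit near Cpr78Cc, which is also the one that put Edg78E within 5 kb, had relative signals of 3.23, 1.13 and 0.907, so only replicate 1 set it well above the median candidate.

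The remaining summits lay by genes of mixed identity. A summit inside Cpr73D stood 684 bp from a TSS of Ogdh, which encodes a subunit of oxoglutarate dehydrogenase, at rank 4355. Cpr97Eb had one at 1252 bp, nearer to CG14258 (761 bp), at rank 4760. Acp65Aa had one at 2598 bp, at rank 5437 with relative signals of 2.61, 1.77 and 3, and this single summit also brought Cpr65Ay, Lcp65Aa and Cpr65Ax2 within 5 kb.

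**Figure D3:**
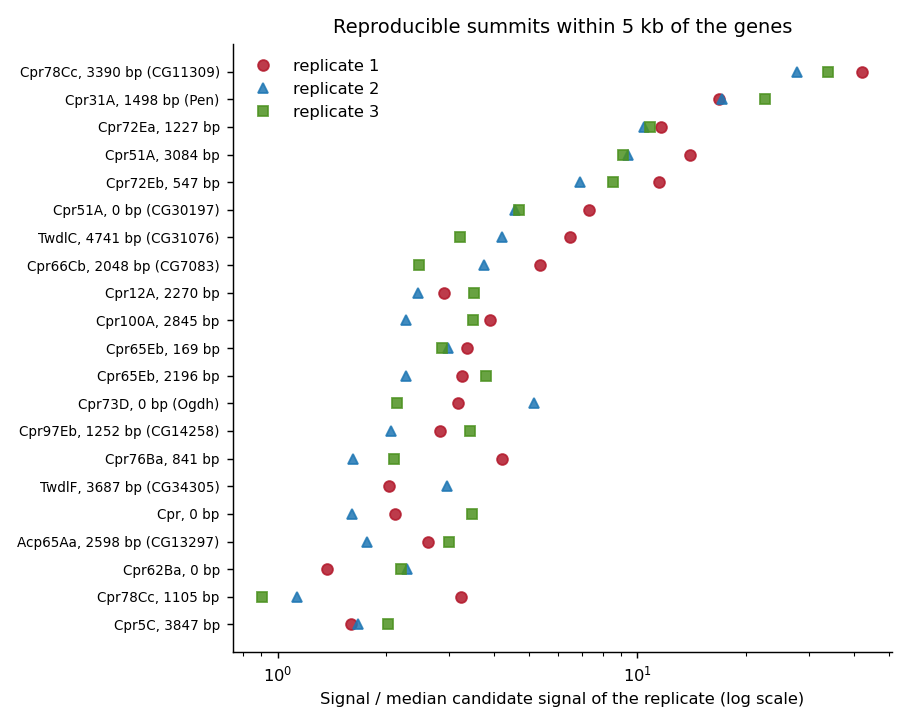
Relative signal of each reproducible summit within 5 kb of a member (log scale, horizontal axis: signal divided by the median candidate signal of that replicate) in the 3 replicates, by nearest member and its distance, with another gene in brackets where its TSS is nearer. Values fall from 42.2 at the summit beside CG11309 to 0.907 at the summit 1105 bp from Cpr78Cc, and Cpr lies in the lower part with 2.12, 1.61 and 3.46.

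There were 9 intergenic summits whose nearest TSS was that of a cuticle gene, and 5 of them are shown with the promoter of that gene, chosen after their values were seen. Cpr72Ea and Cpr72Eb are shown for their strong summits and Cpr12A for the candidate at its promoter described below. Cpr100A and Cpr76Ba are shown for an AT-rich and a GC-rich summit in the 81 bases printed. All 5 promoters hold the TATA word, which not every cuticle promoter does. Summit lines hold 81 bases centred on the summit, from the plus strand, and none overlaps an annotated exon; promoter lines are written as above, with TATAAA in capitals.
Cpr72Ea promoter, chr3L:16362543-16362602, plus strand: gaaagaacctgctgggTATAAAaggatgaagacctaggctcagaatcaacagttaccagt
summit near Cpr72Ea, chr3L:16361336-16361416, plus strand: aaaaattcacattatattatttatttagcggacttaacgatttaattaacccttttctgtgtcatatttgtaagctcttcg
Cpr72Eb promoter, chr3L:16364839-16364898, plus strand: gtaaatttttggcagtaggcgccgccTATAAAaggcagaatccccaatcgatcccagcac
summit near Cpr72Eb, chr3L:16364312-16364392, plus strand: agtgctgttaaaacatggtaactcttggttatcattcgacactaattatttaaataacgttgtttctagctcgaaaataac
Cpr12A promoter, chrX:13543583-13543642, plus strand: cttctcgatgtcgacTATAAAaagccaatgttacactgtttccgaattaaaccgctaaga
summit near Cpr12A, chrX:13541333-13541413, plus strand: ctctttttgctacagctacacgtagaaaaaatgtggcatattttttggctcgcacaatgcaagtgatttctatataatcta
Cpr100A promoter, chr3R:30867461-30867520, plus strand: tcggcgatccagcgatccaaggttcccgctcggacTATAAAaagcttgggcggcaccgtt
summit near Cpr100A, chr3R:30864636-30864716, plus strand: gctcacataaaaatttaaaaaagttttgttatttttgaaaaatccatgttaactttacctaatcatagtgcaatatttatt
Cpr76Ba promoter, chr3L:19518333-19518392, minus strand: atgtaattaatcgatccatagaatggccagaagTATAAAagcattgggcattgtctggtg
summit near Cpr76Ba, chr3L:19516671-19516751, plus strand: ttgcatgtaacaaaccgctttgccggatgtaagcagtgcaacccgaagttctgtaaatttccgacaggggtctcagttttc
The 81 bases had a GC content of 27.2% near Cpr72Ea, 30.9% near Cpr72Eb, 34.6% near Cpr12A, 21% near Cpr100A and 46.9% near Cpr76Ba. The 60 bases of the matching promoters had 43.3%, 50%, 38.3%, 58.3% and 38.3%, so the summit was the more GC-rich of the pair at Cpr76Ba. In longer windows, 201 bases at the summit and 250 before to 50 after the TSS at the promoter, all 9 summits had the lower GC content, from 25.9% at Cpr51A, with 42.3% at its promoter, to 42.3% at the summit by Cpr65Ea, with 42.7% at its promoter.

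Cpr, the cytochrome P450 reductase gene on 2L, was the only gene of the rule with a reproducible summit at a promoter. The summit lay in an intron, 102 bp from one of its 4 annotated TSSs, and not at the canonical one. It stood at rank 5316 with relative signals of 2.12, 1.61 and 3.46, a mean of 2.4 ± 0.955 (SD, n = 3). Its place among the replicates' own candidates was 7056, 8497 and 4071, so replicate 2 put it outside its first 7248. Without replicate 1 or without replicate 3 the summit was not found in both remaining lists and the count was 0. The 81 bases at this summit are given for comparison with the intergenic ones.
summit in Cpr, chr2L:6339683-6339763, plus strand: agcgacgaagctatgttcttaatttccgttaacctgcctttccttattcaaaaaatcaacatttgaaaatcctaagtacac

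Below the reproducible list, pooled candidates reached more promoters. A candidate summit lay within 500 bp of a TSS in 14 of 122 cuticle genes (11.5%), or 15 of 123 with Cpr, against 30.5% of all genes. The replicates' own candidates gave 19 cuticle genes (15.6%) against 29.1% of all genes in replicate 1, 13 (10.7%) against 40% in replicate 2, and 15 (12.3%) against 37.3% in replicate 3. The cuticle mean was 12.8 ± 2.5% (SD, n = 3), below every background value. Within 5 kb of the gene the pooled count was 63 of 122 cuticle genes (51.6%), against 65.8% of all genes. The replicates' own candidates gave 86 (70.5%), 85 (69.7%) and 66 (54.1%) cuticle genes within 5 kb, and matching shares of all genes are not given here. Within 20000 bp of a TSS the order was reversed, with a pooled candidate by 97.5% of cuticle genes, against 93.8% of all genes. The median distance to a pooled candidate was 4612 bp for cuticle genes and 1903 bp for all genes.

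The candidates at cuticle promoters had ranks in the pooled list from 7272 to 28348, with a median of 19460. All had to rank past 7248, because the reproducible list is the pooled candidates to that rank and held no cuticle promoter summit. Of all 4254 genes with a promoter candidate, 2145 (50.4%) had one in the reproducible list, a contrast that repeats the earlier count. Whether cuticle candidates past 7248 ranked lower than those of other genes was not tested. The best cuticle candidates were just past the end of the reproducible list at 7248. Cpr72Ea had a candidate 267 bp from its TSS at rank 7272, with relative signals of 2.63, 1.72 and 1.35, and Cpr12A one at 255 bp at rank 7314, with 2.64, 1.17 and 1.55. Taking the pooled candidates down to rank 7500, a cut chosen after these ranks were seen, adds both genes and gives 3 members with Cpr, against 15.8% of all genes. Both candidates were highest in replicate 1, and the promoters of both genes are among those printed above.

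After these came a long step down. Lcp65Ad had a candidate 114 bp from its TSS at rank 13215 with relative signals of 0.986, 0.984 and 0.889, all close to the median candidate, and Cpr62Ba one at 72 bp at rank 14842 with 0.75, 0.8 and 0.848. Cpr31A (rank 16823), Cpr97Eb (17333), Cpr97Ea (20094) and Cpr65Aw (21887) followed. Cpr92F had one at rank 17291 that was found within 200 bp in replicate 3 only. It had another at rank 18831, 471 bp from its TSS, that was found in replicate 1 only. Edg91, with a candidate at rank 28348, was the only Edg gene with a promoter candidate, and Acp65Aa had one at rank 23375. The 7 Ccp84 genes and Pcp had none.

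Some members have near-identical neighbours. The bases within 500 bp of each canonical TSS were read as overlapping words of 50 bases, and each word was looked up in the genome. In 103 of the 123 members no word occurred elsewhere, and in 11 members more than 10% of the words did. The share was 84.3% in both Lcp65Ab1 and Lcp65Ab2, 73.6% in Cpr65Ax1 and 71.5% in Cpr65Ax2. How the authors treated reads that match several places was not stated, so peaks at these genes are uncertain. Without those 11 members the median distance to a reproducible summit was 12846 bp, against 12139 bp for all 123.

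The promoters of the cuticle genes were rich in the TATA word. A promoter was searched from 250 bases before to 50 after the canonical TSS on both strands. TATAAA was found in 95 of 122 cuticle promoters (77.9%), against 45.3% of 13944 promoters of all genes and 42.8% of the 2145 genes with a reproducible summit near a TSS. At its usual place, on the sense strand within the stretch 45 to 16 bases before the TSS, the word stood in 78 of 122 cuticle promoters (63.9%), against 8.9% of all promoters and 3.64% of those of genes with a nearby summit. This position was chosen after the first search had been seen. The median start was position -29 relative to the TSS, which is where the TATA-binding protein usually contacts a core promoter.

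Every family held the positioned word. It was found in 42 of 70 Cpr genes (60%), 15 of 25 Twdl genes (60%), 11 of 15 Lcp genes (73.3%), 5 of 7 Ccp84 genes (71.4%), all 3 Edg genes, Pcp and Acp65Aa. Among all genes, 1241 had the positioned word and 78 of them (6.29%) had a reproducible summit within 500 bp of a TSS, against 2067 of 12703 genes without it (16.3%). The 78 cuticle genes with the word are 78 of those 1241 genes, and none of them is among the 78 with a summit.

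Other short words were searched in the same window on both strands, and a match is a description of these letters only. TCAGT, part of the initiator, stood in 52.5% of cuticle promoters, against 51.8% of all promoters. GAGAG, the word read by GAGA factor, stood in 32.8% of cuticle promoters, against 30.2% of all. TCAAGG, a word for the prepupal nuclear receptor Ftz-f1, was found in 2 cuticle promoters (1.64%), against 6.76% of all. TATCGATA, a word of the DNA replication-related element (DRE), was found in 1 cuticle promoter (0.82%), against 8.94% of all. GGTCACAC, a word of motif 1 binding protein (M1BP), was found in 0 of 122 cuticle promoters, which allows a share of up to 2.46% (3 counts, counting error only), against 7.54% of all promoters. TATAAAA, a longer form that overlaps TATAAA, stood in 53.3% of cuticle promoters, against 23.8% of all.

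**Figure D4:**
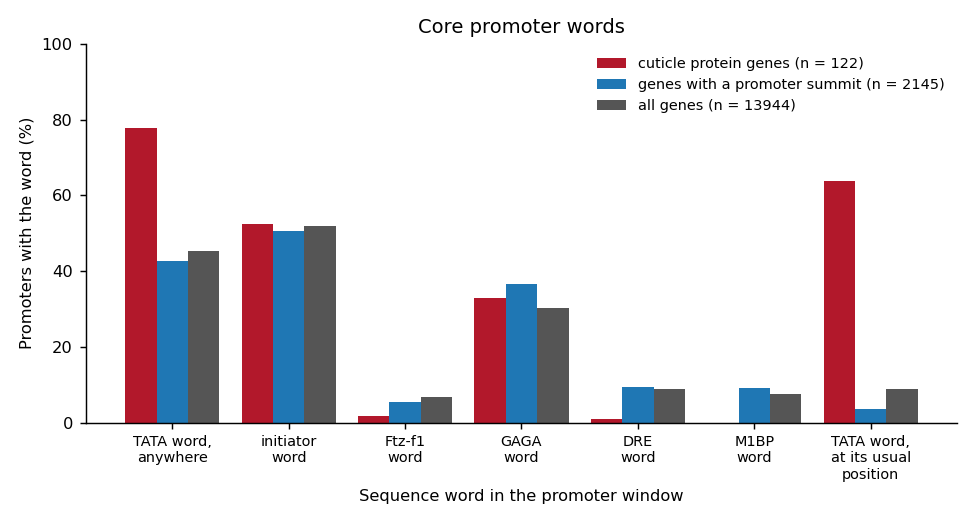
Share of promoters (%, vertical axis) that hold each sequence word, for cuticle protein genes (red, n = 122), genes with a reproducible summit within 500 bp of a TSS (blue, n = 2145) and all genes (grey, n = 13944). The positioned TATA word stands in 63.9% of the cuticle promoters, against 3.64% and 8.9% in the other sets, while the initiator word is found at like shares of 52.5%, 50.6% and 51.8%.

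Base composition was read in the same promoter window. The median GC content was 44.3% in cuticle promoters (interquartile range 40 to 48.7%), 38.7% in promoters of genes with a reproducible summit and 38% in all promoters. Windows of 201 bases centred on the 7248 reproducible summits had a median GC content of 34.3%. The reproducible summits within 5 kb of a member had a median of 31.8%. These windows differ in length from the promoters, so the levels are set side by side only.

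Genes that build or regulate cuticle but lie outside the symbol rule were counted in the same way, from lists written with earlier results of these data known. A reproducible summit lay within 500 bp of a TSS in 2 of 12 genes of chitin synthesis and modification, 0 of 6 genes of chitin-binding proteins, 1 of 8 tanning genes, 0 of 7 genes of other cuticle protein families and 9 of 16 regulators, against 15.4% of all genes. The replicate lists gave 2, 4 and 2 genes for chitin synthesis and modification, 9, 8 and 9 for the regulators, 0, 0 and 1 each for chitin-binding proteins and tanning, and 0 in each for the other cuticle proteins. The lists are short, and no test was made on them. Every annotated TSS was used, so a gene with several TSSs had more chances of a summit within 500 bp. The lists were not matched for the number of TSSs or for gene length.

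In the chitin list, Cht7, a chitinase family gene, had a summit at rank 888 with a relative signal of 9.92 ± 2.68 (SD, n = 3), and kkv, the chitin synthase of the epidermis, one at rank 5470 with 2.47 ± 0.575. In the tanning list, Pu, which encodes GTP cyclohydrolase, had one at rank 5536 with a mean of 2.22 over the 2 replicates in which it was found. Among the regulators, the ecdysone receptor gene EcR had 4.48 ± 0.655, its partner usp 3.41 ± 0.888, the ecdysone-response genes br 2.75 ± 0.616 and Eip74EF 4.91 ± 1.17, the epidermal factor gene grh 9.74 ± 4.93, CrebA 4.31 ± 1.86 and vvl 1.98 ± 0.945 (SD, n = 3 each). The ecdysone-response genes Eip75B and Eip93F also had promoter summits, at ranks 493 and 634. At ftz-f1, which encodes the prepupal nuclear receptor Ftz-f1, the nearest reproducible summit to a TSS was 5688 bp away, although the replicate 3 list had a promoter summit there. Whole prepupae mix tissues, so occupancy in the epidermis cannot be told apart from occupancy elsewhere, and occupancy in few cells cannot be told apart from weak occupancy in many.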

How the data were processed

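ChIP-seq peak lists of 3 biological replicates were analysed. Per the file headers, each candidate list came from 1 replicate's alignments with a control file common to all, and the pooled list from the 3 replicates together. An irreproducible discovery rate (IDR) step by the authors then gave the reproducible list. Neither the aligner and peak caller nor the IDR cut-off was stated. The deposited signal is the peak caller's own value on a scale of its own in each list, so it was ranked or divided by the list's median. The deposited −log10 q-value was read but ranked nothing. Distances were measured from the deposited summit offset of each peak. The reproducible list was checked to be the 7248 pooled candidates with the highest signal.

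Ensembl release 115 supplied the genes, its chromosomes being long enough for all peaks, and sequences from the RefSeq genome of the same assembly (dm6). Every annotated TSS was used for distances and the canonical one for sequences, and 1 gene without a canonical transcript was left out of the promoters. Each replicate's value is the highest relative signal within 200 bp of a pooled summit. Replicates shared the control file, so they are not fully independent, and SDs measure the spread between these samples only. Limits for a count of 0 use 3 counts, cover counting error only and take genes as independent. Neighbours in a cluster can share summits, so they are not fully independent. No test between groups was possible with 1 group, and the members are described by counts and medians beside those of all genes. Members and lists were chosen with earlier results of these data known. Genes were named by rule: members with a promoter summit, the 10 nearest and 3 farthest, the 10 with the strongest promoter candidates, the ends of clusters of 3 or more, Edg78E, Edg84A, Edg91, Pcp, Acp65Aa, Cpr, Lcp1 and TwdlA, other cuticle-building genes with a promoter summit, and the nearest gene of summits by clusters; the rest were named after their values were seen. Other windows, peak lists and gene sets were tried in 40 variations, and 5 more were chosen after seeing the data, of which 2 recomputed a count or distance and 3 changed the background genes or the place of the TATA word. Scripts used Python 3.11.15, numpy 2.4.6, pandas 2.3.3 and matplotlib 3.10.9. The distances from TSSs and genes to summits were tested on simulated summits.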

Additional observations from a re-analysis of the deposited data

How the results depend on the processing

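Counts moved with windows and thresholds, and the shares of all genes moved with them. The 1 gene of the rule with a reproducible summit within 500 bp of a TSS (Cpr) became 4 within 1000 bp (19.1% of all genes). The count became 0 with canonical TSSs (12.6%), 0 without Cpr (15.4%) and 0 among the 3624 strongest reproducible summits of the list (9.8%). With summits found within 200 bp in all 3 replicate lists of equal length it became 0 (10.4%). With candidates to rank 7500 it became 3 (15.8%). Leaving out 1 replicate gave 0 to 1, against 11.2 to 12% of all genes. The 29 members within 5 kb became 13 within 2 kb (31.8%), 51 within 10 kb (61.1%) and 8 among the 3624 strongest (32.7%). They became 16 with summits in all 3 replicates (34.9%). There were 18 without replicate 1 (39.2%), 24 without replicate 2 (36.8%) and 16 without replicate 3 (36.6%). The 15 members with a promoter candidate became 8 at 250 bp (24.1%), 23 at 1000 bp (35.9%) and 5 among the 15000 strongest candidates (23.8%). The median gene distance of 12139 bp over the 123 genes became 26518 bp among the 3624 strongest (11374 bp for all genes), 19460 bp with summits in all 3 replicates (10233 bp), 14579 to 18961 bp without 1 replicate (8331 to 9478 bp) and 12846 bp without repeated sequence. The median cluster distance of 6819 bp became 18707 bp among the 3624 strongest, 11072 bp with summits in all 3 replicates and 10297 bp without any 1 replicate. The stricter lists hold fewer peaks (3624, 4838 and 5291 to 5444), which lengthens distances by construction. Of 42 recomputed values (40 and 2 chosen after seeing the data, which are the 7500 cut and the set without repeated sequence), 14 stayed within the spread or within 1.5 times the count, including all 4 for the 64 members with a candidate within 5 kb. No paired analysis was possible because the replicates form a single group. Depth was unknown. The limit of 2.46% for a count of 0 of 122 covers counting error only and takes genes as independent.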
